A study of Mus musculus with 6 samples.

Results

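The genes described here encode the proteins of the cytosolic ribosome and their close paralogs. Members were all genes whose symbol begins with Rpl or Rps and a digit, together with Rplp0, Rplp1, Rplp2 and Rpsa. Kinases of the Rps6k family, Rps19bp1 and symbols with a hyphen were left out. Of 24848 genes listed, 88 were members: 46 encode proteins of the large subunit, 31 encode proteins of the small subunit, and 11 are paralogs that resemble one of them. The 77 genes of both subunits are called ubiquitous here, because their proteins are general components of the ribosome. Messenger RNA was sequenced from 6 mouse brains at embryonic stage E14.5, of which 3 were labelled wild type (WT) and 3 were labelled as knockout of E4f1 (E4f1 KO, here KO). E4f1 encodes a zinc finger protein. The allele, any Cre driver, the litters, the sex and whether every cell of the brain carries the deletion were not given in the sources used here. The question asked of these members was how their mRNA differed between KO and WT brains.

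A ribosome carries about one copy of each of these proteins, and the cell makes them in amounts that match. Their mRNAs are short and abundant, and most begin with a cytidine followed by a run of pyrimidines, the terminal oligopyrimidine (TOP) sequence, through which mTORC1 and the protein LARP1 adjust their translation together. In the embryonic brain, dividing progenitors and newborn neurons both depend on ribosome production.

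The libraries held between 42113465 and 74064707 expected counts, the estimated number of read pairs per library, and 15848 genes had enough counts to be tested. E4f1 measured 20.7, 21.6 and 21.5 CPM (counts scaled to a common library total) in WT 1 to 3 and 7.12, 7.01 and 6.92 CPM in KO 1 to 3, a log2 fold change of -1.60 ± 0.08 (standard error, SE; adjusted p = 0.00142). Of all tested genes, 81 were called higher in KO (0.511%) and 78 were called lower (0.492%) at an adjusted p under 0.05, and the median log2 fold change was 0.00 after rounding. Calls and tests are those of edgeR unless DESeq2, an alternative count test, is named. Libraries differed in ways beyond genotype. Markers of the midbrain-hindbrain boundary (6 genes) summed to 76.0, 36.2 and 5.82 CPM in the WT libraries and 3.41, 5.68 and 5.76 CPM in the KO libraries, so that WT 3 lay beside the KO libraries. The 45S ribosomal RNA precursor Rn45s took 1.45%, 2.48% and 5.23% of the WT counts and 0.520%, 0.635% and 2.09% of the KO counts, with overlap between the groups. Markers of meninges reached 5312 CPM in KO 3 and 2724 CPM in WT 2, against 482 to 1124 CPM in the other libraries.

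Nearly all ubiquitous ribosomal protein mRNAs had higher levels in the KO brains, each by a modest amount. Together the 77 genes took 2.04%, 1.83% and 1.88% of all expected counts in WT 1 to 3 and 2.64%, 2.36% and 2.75% in KO 1 to 3. The means were 1.92% ± 0.113 (SD, n = 3) in WT and 2.58% ± 0.205 (SD, n = 3) in KO, a ratio of 1.35. Every KO library lay above every WT library. The exact two-sided permutation test gave p = 0.1, the smallest value that 3 libraries against 3 allow. The share was higher in TPM, which scales for transcript length, at 9.75%, 8.99% and 9.504% in WT and 12.2%, 11.1% and 12.8% in KO, because these mRNAs are short.

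Gene by gene, 76 of the 77 ubiquitous genes had a positive log2 fold change, against 49.9% of all tested genes. Their median was 0.36, a ratio of 1.285, and the middle 50% of the genes ran from 0.30 to 0.42. In 72 of the 77, all 3 KO libraries were above all 3 WT libraries, which was so for 14.6% of all tested genes. Only 3 passed the adjusted test (Rpl17, Rpl35a and Rps15), all higher, and none passed as lower. At an unadjusted p under 0.05 there were 69 higher and 0 lower, against 10.3% higher and 9.31% lower among all tested genes. Counting up to an adjusted p of 0.10, 38 were higher, against 1.89% of all tested genes. DESeq2 called 63 of the 77 higher and 0 lower, against 5.02% higher and 4.42% lower among all tested genes. The number of calls depended on the test, while the direction was positive in all but 1 gene.

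Each library contributed to the shift in its own measure. Against the mean of the WT libraries, the median ubiquitous gene stood at 0.05, -0.06 and 0.01 log2 units in WT 1 to 3 and at 0.40, 0.25 and 0.45 in KO 1 to 3. KO 2 was the lowest of the KO libraries for 75 of the 77 genes, KO 3 was the highest for 66, and WT 2 was the lowest WT library for 66. The members thus moved together between libraries of one genotype as well as between genotypes. Every KO median lay above every WT median.

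**Figure D1:**
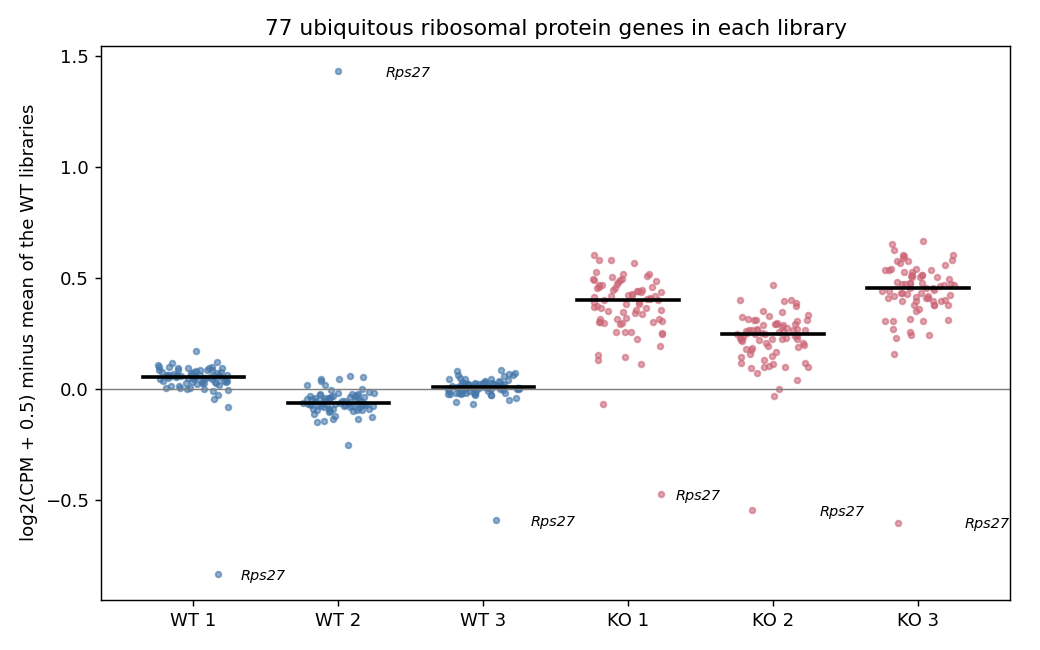
Each point is 1 of the 77 ubiquitous ribosomal protein genes in 1 library, on a vertical axis of log2(CPM + 0.5) minus that gene's mean over the 3 WT libraries. Bars mark the library medians, which lie at 0.05, -0.06 and 0.01 in WT 1 to 3 and at 0.40, 0.25 and 0.45 in KO 1 to 3. Rps27, the gene far from the rest in most libraries, is labelled.

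Several other measures separated the genotypes in the same libraries. In a whole brain, fewer cells of a type and less RNA per cell cannot be told apart. The summed markers of red blood cells (15 genes) were 1467, 1549 and 706 CPM in WT and 1590, 1892 and 2287 CPM in KO. By edgeR 0 of them were called (4 higher and 0 lower at an unadjusted p under 0.05), and DESeq2 called 3 higher. Hbb-bt and Hbb-b2 had the same values in every library, so 1 signal is counted as 2 genes. Of the 15 genes, 12 had a positive value, and 3 had a negative one, the globins Hbb-y, Hbb-bh1 and Hba-x. Hbb-y held 373.7 CPM of the WT 1 sum, against 1.654 to 28.15 CPM in the other libraries. Rhag alone was at 0 in some library. Markers of microglia and macrophages (12 genes) summed to 85.9, 135 and 95.5 CPM in WT and 148, 155 and 206 CPM in KO, with 1 called higher by edgeR and 8 by DESeq2. Endothelial and pericyte markers (10 genes) summed to 437, 482 and 428 CPM in WT and 544, 518 and 700 CPM in KO, with 0 called by edgeR (6 higher at an unadjusted p under 0.05) and 4 higher by DESeq2. Neuronal markers (10 genes) had lower sums in KO, with 7478, 8695 and 8345 CPM in WT and 6176, 6661 and 5912 CPM in KO. By edgeR 0 of them were called (5 lower and 0 higher at an unadjusted p under 0.05), and DESeq2 called 4 lower. The summed markers of neural progenitors (11 genes) overlapped between the groups. The part of these cell types in the ribosomal protein values was not tested.

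From each marker list, 1 gene is given: the one called or, where none was called, the one with the smallest p. It need not follow the rest of its list. Hba-a1, an alpha globin, measured 278, 336 and 162 CPM in WT and 360.0, 465 and 542 CPM in KO (adjusted p = 0.202). Cx3cr1, a receptor of microglia, measured 9.84, 13.1 and 12.1 CPM in WT and 21.0, 23.6 and 26.8 CPM in KO (adjusted p = 0.0395). Pecam1, of endothelium, measured 27.4, 26.9 and 27.1 CPM in WT and 35.9, 33.2 and 43.1 CPM in KO (adjusted p = 0.107). These 3 genes had every KO library above every WT library, as the ribosomal protein genes did. Dcx, of young neurons, measured 1797, 1990.0 and 2146 CPM in WT and 1368, 1379 and 1470.0 CPM in KO (adjusted p = 0.0678). Fabp7, of radial glia, measured 287, 327 and 269.6 CPM in WT and 194, 212 and 186 CPM in KO (adjusted p = 0.0555). Pax5, of the midbrain-hindbrain boundary, measured 6.27, 3.55 and 0.331 CPM in WT and 0.0839, 0.0701 and 0.118 CPM in KO (adjusted p = 0.0958). In these 3 genes every KO library was below every WT library, and WT 3 was far below the other WT libraries for Pax5. Most neural progenitor markers went the other way from Fabp7, with 8 of 11 log2 fold changes positive and a median of 0.08. The boundary list held 4 negative and 2 positive values. Foxc1, of the meninges, overlapped, at 12.3, 15.2 and 8.50 CPM in WT and 13.2, 9.86 and 34.5 CPM in KO (adjusted p = 0.48).

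The midbrain-hindbrain boundary score was used as a covariate, an alternative added after seeing the data. The median of the 77 genes was then 0.36 and edgeR called 0 of them. At an unadjusted p under 0.05, 28 were higher, against 944 of 15848 tested genes in either direction. Within WT 1, WT 2, KO 1 and KO 2, whose animal numbers lie close together, the median was 0.33 and edgeR called 0 of the 77. There, 46 were higher at an unadjusted p under 0.05, against 1546 of 15951 tested genes in either direction.

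Short transcripts as a class differed less than the ribosomal protein mRNAs. Among genes with a mean transcript length of up to 500 bases, the 15 ubiquitous members had a median log2 fold change of 0.34 and the 99 other genes had 0.11. Between 500 and 1000 bases the values were 0.36 for 43 members and 0.05 for 941 other genes. Between 1000 and 2000 bases they were 0.39 for 15 members and 0.04 for 3505 other genes. In all 3 length classes the members lay above other mRNAs of like length.

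Both subunits had shifts of like size. Large subunit genes held 1.22%, 1.09% and 1.12% of the counts in WT and 1.58%, 1.41% and 1.645% in KO, a ratio of 1.35. Small subunit genes held 0.826%, 0.734% and 0.756% in WT and 1.06%, 0.942% and 1.11% in KO, a ratio of 1.34. The ratio of small to large subunit counts was 0.678, 0.671 and 0.675 in WT and 0.672, 0.667 and 0.673 in KO. These values overlapped between the groups (exact two-sided permutation p = 0.3).

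In the large subunit, all 46 genes had a positive log2 fold change, with a median of 0.35 and a range from 0.06 to 0.54, and 2 were called. Rpl17, whose protein lines the exit of the tunnel through which the nascent chain leaves, measured 325, 310 and 326 CPM in WT and 486, 421 and 487 CPM in KO. The groups were well apart, with KO 2 the lowest of the KO libraries, and Rpl17 rose by a log2 fold change of 0.54 ± 0.08 (SE; adjusted p = 0.0456). Rpl35a (chr16:33056453-33060189, GRCm38), a gene mutated in some families with Diamond-Blackfan anemia, measured 123, 109 and 113 CPM in WT and 162, 152 and 167 CPM in KO. It rose by 0.48 ± 0.07 (SE; adjusted p = 0.0470). These calls sit just under the threshold. Rpl17 was called in 1 of the 6 fits that leave out 1 library, the one without KO 2 (adjusted p = 0.0487), and Rpl35a in 0 of 6 (adjusted p from 0.0738 to 0.26). Rpl23 measured 303, 292 and 307 CPM in WT and 450, 378 and 453 CPM in KO, without overlap. The fold change was 0.51 ± 0.09 in log2 (adjusted p = 0.0622).

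The proteins of Rpl5 and Rpl11 join the ribosomal 5S RNA and can bind the p53 regulator MDM2 when assembly is disturbed. These genes had log2 fold changes of 0.44 and 0.35, against a median of 0.35 for the subunit. The stalk, which recruits the translation factors that hydrolyse GTP, is built from Rplp0, Rplp1 and Rplp2. Rplp0 measured 834, 764 and 815 CPM in WT and 988, 926 and 1140 CPM in KO, a log2 fold change of 0.34 ± 0.10 (adjusted p = 0.148). Rplp2 measured 157, 146 and 152 CPM in WT and 189, 177 and 200 CPM in KO, a log2 fold change of 0.31 ± 0.07 (adjusted p = 0.0989). Rplp1, the partner of Rplp2 in the stalk dimer, measured 167, 177 and 168 CPM in WT and 186, 167 and 206 CPM in KO. Its KO 2 value fell among the WT values, and its log2 fold change was 0.13 ± 0.09 (adjusted p = 0.454). By edgeR none of the stalk genes passed the test, and by DESeq2 Rplp0 and Rplp2 did (adjusted p = 0.0254 and 0.00456).

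Other genes of large subunit proteins with known roles had log2 fold changes from 0.19 to 0.44. Rpl3 and Rpl4, large proteins that reach from the surface towards the centre of the subunit, measured 469, 441 and 444 CPM and 695, 643 and 699.5 CPM in WT. In KO they measured 570, 542 and 609 CPM and 933, 841 and 983 CPM, with log2 fold changes of 0.35 ± 0.07 (adjusted p = 0.0908) and 0.44 ± 0.09 (adjusted p = 0.0768). Rpl24, which joins late and bridges the subunits, measured 213, 196 and 206 CPM in WT and 283, 261 and 284 CPM in KO, at 0.43 ± 0.07 (adjusted p = 0.0508). Rpl10, which completes the subunit in the cytoplasm, measured 363, 342 and 331 CPM in WT and 412, 392 and 440.4 CPM in KO, at 0.26 ± 0.07 (adjusted p = 0.143). Rpl38, whose loss in mice alters the axial skeleton, measured 80.9, 83.5 and 80.4 CPM in WT and 113, 99.0 and 108 CPM in KO, at 0.38 ± 0.07 (adjusted p = 0.0631). Rpl15 had one of the smaller shifts and the tightest WT values, at 255, 256 and 256 CPM in WT and 292, 277 and 305 CPM in KO (0.19 ± 0.06, adjusted p = 0.182). In all 6 of these genes the groups did not overlap. None passed the edgeR test, and all 6 passed that of DESeq2, with adjusted p from 8.73e-06 for Rpl24 to 0.0489 for Rpl15.

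In the small subunit, 30 of 31 genes had a positive log2 fold change, the median was 0.38, and 1 gene was called. Rps15 (chr10:80292431-80294114, GRCm38), whose protein is needed for export of the small subunit precursor from the nucleus, measured 302, 279 and 290 CPM in WT and 395, 383 and 428 CPM in KO. It rose by 0.47 ± 0.07 (SE; adjusted p = 0.0488) and was called in 0 of the 6 fits without 1 library (adjusted p from 0.0872 to 0.257). Rps14, a protein of the decoding platform whose loss in human bone marrow accompanies an anemia, measured 272, 230 and 268 CPM in WT and 383, 354 and 406 CPM in KO. Its log2 fold change of 0.57 ± 0.09 was the largest of the 77, and its adjusted p was 0.0551. The genes with the largest values thus fell on either side of the threshold with p-values that hardly differed.

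Rps6, the small subunit protein that S6 kinases phosphorylate when mTORC1 is active, measured 209.6, 184 and 197 CPM in WT and 264, 239.9 and 278 CPM in KO, a log2 fold change of 0.40 ± 0.08 (adjusted p = 0.0857). Rps19, the gene most often mutated in Diamond-Blackfan anemia, measured 163.5, 159 and 163 CPM in WT and 213, 185 and 225 CPM in KO (0.36 ± 0.08, adjusted p = 0.108). Rps27a, made as a fusion with ubiquitin, measured 249, 224 and 233 CPM in WT and 326, 279.8 and 314 CPM in KO (0.38 ± 0.08, adjusted p = 0.0951). Each of them lay close to the median of the family, with all KO libraries above all WT libraries. Rps9 was among the exceptions, at 391, 331 and 378 CPM in WT and 435, 391 and 498 CPM in KO. Its KO 2 value of 391.0 fell just below the WT 1 value of 391.4, and its log2 fold change was 0.27 ± 0.11 (adjusted p = 0.263).

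At the low end of the small subunit stood Rps15a, at 228, 229 and 222 CPM in WT and 265, 233 and 266 CPM in KO. Its groups did not overlap, although KO 2 came close to WT, and its log2 fold change was 0.17 ± 0.07 (adjusted p = 0.268). Rpsa, whose protein also goes by the name laminin receptor, measured 782, 736 and 753 CPM in WT and 836, 807 and 940 CPM in KO, a log2 fold change of 0.19 ± 0.08 (adjusted p = 0.278). Rps26, whose protein lies at the exit channel of the mRNA, had a mean of 3502 TPM, the highest of the ubiquitous genes, and measured 301, 269 and 278 CPM in WT and 371, 331 and 391 CPM in KO. Its log2 fold change of 0.36 ± 0.09 (adjusted p = 0.112) lay at the median of the family.

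**Figure D2:**
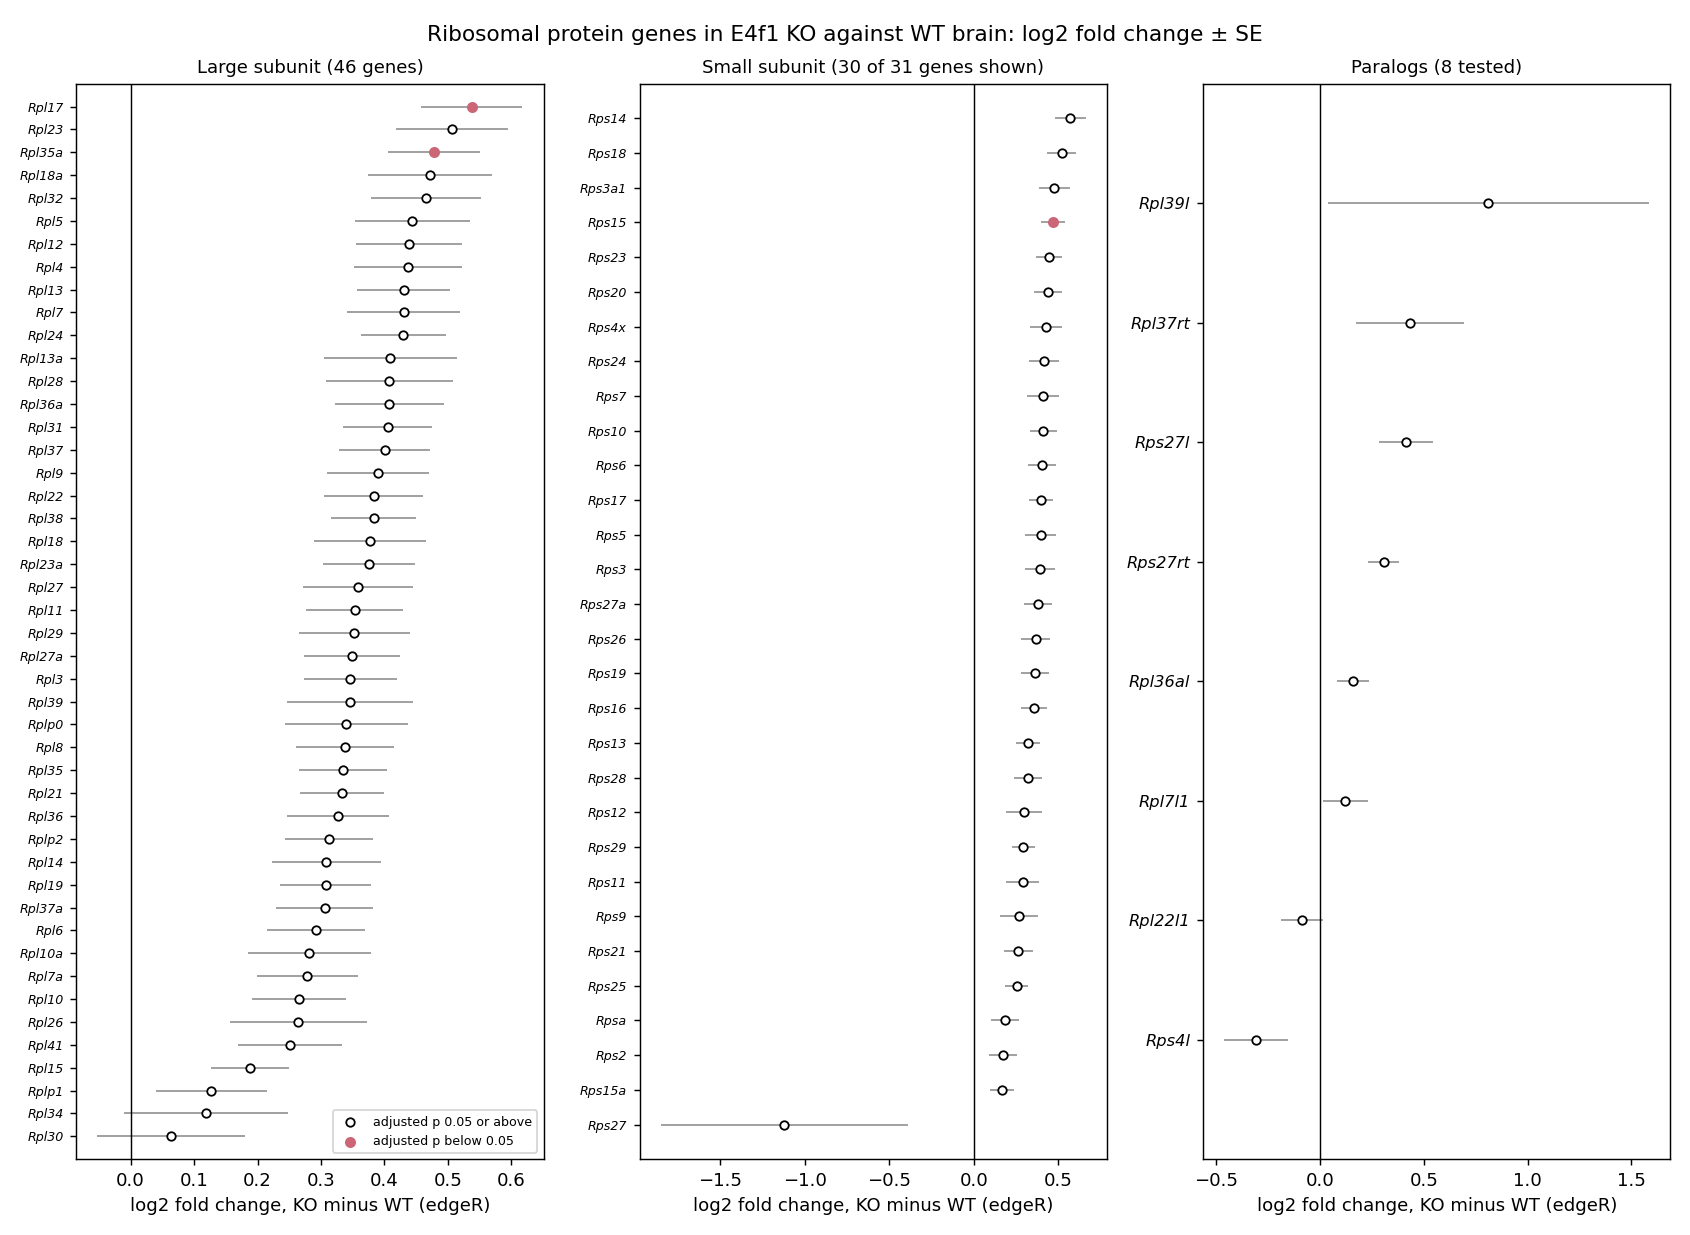
Log2 fold changes of KO against WT with SE for the ubiquitous genes of each subunit, sorted by value (1 gene of the small subunit is not shown), and for the 8 tested paralogs, on horizontal axes that differ between the panels. Filled points are the genes called, Rpl17, Rpl35a and Rps15, at 0.54, 0.48 and 0.47, and Rps27 is the only ubiquitous gene below 0, at -1.12 with an SE of 0.73.

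Several of the genes with small or negative values had low levels. Among the 77 genes, 6 had a mean under 200 TPM, against a family median of 1352 TPM and 53 genes above 1000 TPM. Rps27, Rpl26, Rpl30 and Rpl34 were 4 of them and had few counts. The other two, Rps15a and Rps20, were low per length and not in counts, with at least 222 and 164.4 CPM in every library. Rps27, a zinc finger protein of the small subunit, measured 1.14, 7.42 and 1.44 CPM in WT and 1.61, 1.51 and 1.43 CPM in KO. WT 2 stood alone, and the log2 fold change was -1.12 ± 0.73 (adjusted p = 0.431). Without WT 2 it was 0.23. The retrogene Rps27rt, whose coding sequence is 100% identical to that of Rps27 over 100% of its length, measured 178, 159 and 165 CPM in WT and 217, 192 and 211 CPM in KO. Read pairs of such a pair of genes can be told apart only where the sequences differ, and the counting settings were not given in the sources used here.

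The starts of both genes share a run of bases, which covers only a small part of the transcripts. Their mean transcript lengths were 539.8 bases for Rps27 and 345 bases for Rps27rt. The windows below, from RefSeq (GRCm38.p6), hold 50 bases before and 25 bases from the annotated start, 5′ to 3′ on the gene's strand, and capitals mark the run of 24 bases that both share. Rps27 lies at chr3:90213624-90213698 and Rps27rt at chr9:114982715-114982789, both on the minus strand.
Rps27: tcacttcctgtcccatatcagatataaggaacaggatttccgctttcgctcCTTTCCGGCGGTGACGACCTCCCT
Rps27rt: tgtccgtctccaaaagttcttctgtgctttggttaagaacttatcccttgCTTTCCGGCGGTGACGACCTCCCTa
The bases before the shared run differ between the genes, and nearly all of the transcript that follows the annotated start in these windows is the same.

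The other 3 genes with few counts had the same arrangement. Rpl26 measured 9.53, 9.66 and 8.90 CPM in WT and 12.2, 10.4 and 11.2 CPM in KO, while Gm15772, 99.5% identical to it in coding sequence, measured 183, 168 and 187 CPM in WT and 252, 225 and 255 CPM in KO. Rpl30 measured 12.5, 13.8 and 13.5 CPM in WT and 12.6, 13.2 and 15.7 CPM in KO, which overlapped. Its copy Gm12191, 99.7% identical, measured 123, 134 and 147 CPM in WT and 201, 179 and 194 CPM in KO, which did not. Rpl34 measured 17.5, 12.9 and 16.5 CPM in WT and 17.3, 16.3 and 17.4 CPM in KO. Its copy Rpl34-ps1, 99.4% identical, measured 106, 100 and 108 CPM in WT and 139, 124 and 142 CPM in KO. In each case the row of the copy held most of the counts and its KO libraries were above its WT libraries.

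Adding the rows of near-identical copies to their gene, a choice made after seeing the data, changed these values. A copy was taken as near-identical at 95% identity or more over at least 90% of the coding sequence, and 18 members had one among the listed genes. Rows were added where the copy was a gene model with a Gm number, a numbered pseudogene or a retrogene, which was so for 13 members. Rpl21, Rpl32, Rpl7a and Rplp2 had only matches in genes with other symbols and were left as they were, and Rps27rt was itself counted as the copy of Rps27. Rps27 with Rps27rt gave 179, 166 and 166 CPM in WT and 219, 194 and 212 CPM in KO, a log2 fold change of 0.29 ± 0.07 (adjusted p = 0.12). Rpl30 with its copies gave 0.47 ± 0.08 (adjusted p = 0.0658), Rpl26 with its copy 0.44 ± 0.08 (adjusted p = 0.0615), and Rpl34 with its copy 0.33 ± 0.08 (adjusted p = 0.105). After this step all 77 ubiquitous genes had a positive log2 fold change, from 0.13 to 0.57 with a median of 0.38. KO and WT libraries then overlapped for Rplp1 and Rps9 alone, and 3 genes were called, as before.

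**Figure D3:**
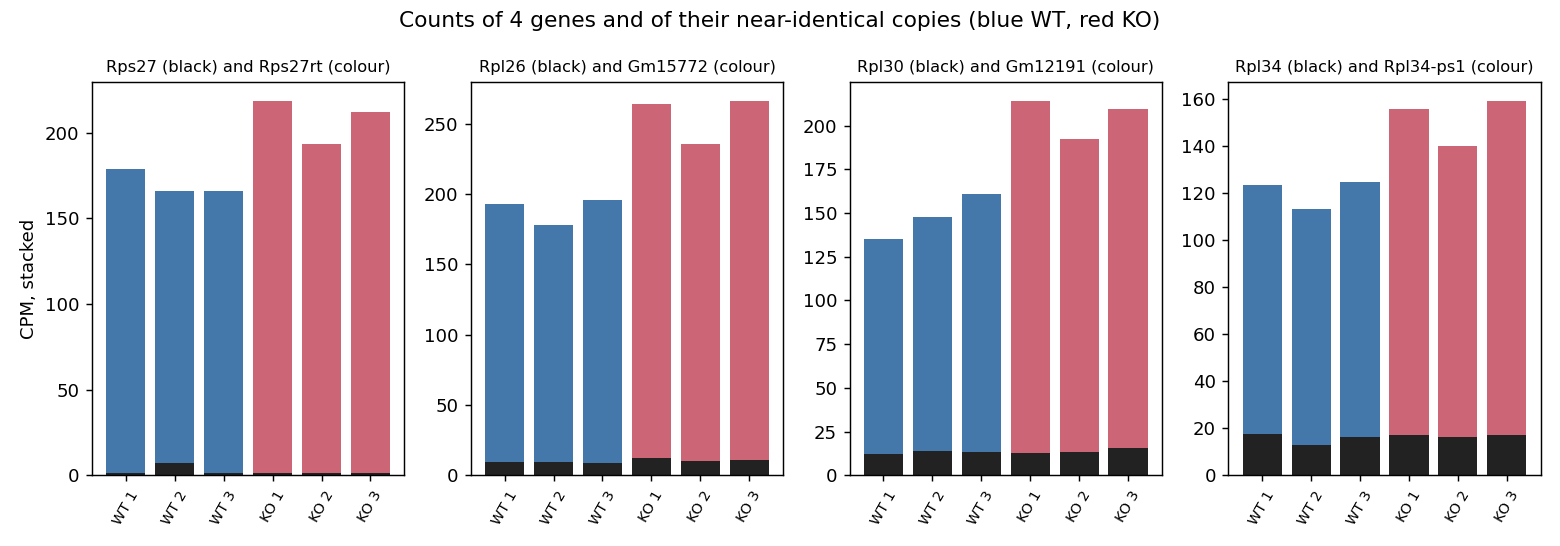
Stacked CPM in each library for Rps27, Rpl26, Rpl30 and Rpl34 (black) and for their near-identical copies (blue in WT, red in KO), on vertical axes that start at 0 and differ between panels. The whole bars, the sums, are higher in all KO libraries than in any WT library, while the black parts, such as Rps27 at 1.14 to 7.42 CPM, are small.

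Within the family, the balance between genes was tested by scaling each library to its ubiquitous ribosomal protein counts in place of all genes. Under that scaling edgeR called 0 of the 77 genes in either direction, when 32.4% of all tested genes were called (0.713% higher and 31.6% lower, since this scaling sets the family to 0). The smallest adjusted p was 0.0681. At an unadjusted p under 0.05 there was 1 gene on the high side, Rps14 at 0.21, and there were 3 on the low side, Rpl30 at -0.31, Rplp1 at -0.24 and Rps15a at -0.20. DESeq2 under the same scaling called 7 genes, against 1.03% higher and 43.4% lower among all tested genes. Of the 7, 3 were higher, among them Rpl17 at 0.17 and Rps14 at 0.21. It called 4 lower, Rplp1, Rps15a, Rps2 and Rpsa at -0.24, -0.20, -0.19 and -0.18. With copies summed, the SD of the log2 fold changes among the 77 genes was 0.09, and the median SE of a single gene was 0.08. These values were alike in size. The SE also holds differences between libraries that the members share, which do not widen the spread among genes. The comparison therefore cannot decide whether single genes depart from the family.

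The paralogs gave a more mixed picture. They are genes that arose by duplication of a ribosomal protein gene. Some make a protein that can replace the parent's in certain tissues, as Rpl10l and Rpl39l do in the testis and Rpl3l does in muscle. Of 11 paralogs, 3 had too few counts to be tested: Rpl10l had 0 counts in every library, Rpl3l had 0 to 3 and Rpl32l had 0 to 9. Of the 8 tested, edgeR called 0. At an unadjusted p under 0.05 there were 2 higher and 0 lower, against 10.3% and 9.31% of all tested genes. DESeq2 called 1 higher, against 5.02% of all tested genes: Rps27rt, whose row can hold read pairs of Rps27. The median log2 fold change was 0.23, with 6 positive and 2 negative. In 2 of 8 all KO libraries were above all WT libraries, against 14.6% of all tested genes. Counts out of 8 are too small to be told apart from these shares.

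The 2 paralogs with all KO libraries above all WT libraries were Rps27rt and Rps27l. Rps27rt, described above, had a log2 fold change of 0.31 ± 0.08 (adjusted p = 0.12), and its mean of 3504 TPM was the highest of all members. That row can hold read pairs of Rps27, so its values may not be those of the paralog alone. Rps27l, a known p53 target gene, measured 18.1, 13.5 and 16.4 CPM in WT and 21.95, 19.4 and 22.5 CPM in KO, a log2 fold change of 0.41 ± 0.13 (adjusted p = 0.172). Rpl37rt, a retrogene, measured 1.37, 1.29 and 1.10 CPM in WT and 1.67, 1.26 and 2.16 CPM in KO, with 0.43 ± 0.26. Its groups overlapped and its counts were few. Rpl39l measured 0.0269, 0.219 and 0.196 CPM in WT and 0.112, 0.385 and 0.255 CPM in KO, with overlap and a log2 fold change of 0.81 ± 0.77.

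Rpl22l1 and Rps4l had negative values. Rpl22l1, whose mRNA is held down by the Rpl22 protein in other systems, measured 25.1, 24.4 and 24.1 CPM in WT and 22.9, 20.5 and 25.98 CPM in KO, a log2 fold change of -0.09 ± 0.10 (adjusted p = 0.664). Rps4l measured 29.5, 36.4 and 35.7 CPM in WT and 25.1, 33.2 and 23.8 CPM in KO, a log2 fold change of -0.31 ± 0.15 (adjusted p = 0.327). Rpl36al measured 36.1, 31.6 and 33.1 CPM in WT and 38.0, 35.8 and 38.7 CPM in KO, with 0.16 ± 0.08 (adjusted p = 0.315). Rpl7l1, a nucleolar relative of Rpl7, measured 71.4, 57.1 and 67.2 CPM in WT and 69.4, 65.7 and 77.9 CPM in KO, with 0.12 ± 0.11 (adjusted p = 0.559). All 4 had overlapping groups.

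Set against their parents, these 4 paralogs had lower ratios in every KO library than in any WT library. The measure was the log2 ratio of paralog to parent counts within each library, and 7 pairs were compared. For Rpl22l1 and Rpl22 it was -2.89 ± 0.09 (SD, n = 3) in WT and -3.37 ± 0.07 in KO, a difference of -0.47. Rpl22 itself measured 176, 179 and 191 CPM in WT and 244, 217 and 253 CPM in KO. For Rps4l and Rps4x the ratio was -3.57 ± 0.23 in WT and -4.31 ± 0.40 in KO, a difference of -0.74. For Rpl7l1 and Rpl7 it was -2.89 ± 0.08 in WT and -3.19 ± 0.06 in KO, a difference of -0.30. For Rpl36al and Rpl36a it was -1.15 ± 0.04 in WT and -1.39 ± 0.09 in KO, a difference of -0.24. In each of these pairs the exact two-sided permutation p was 0.1 (0.175 after Benjamini-Hochberg adjustment over the 7 pairs), the smallest unadjusted p that the design allows. Scaled to the ubiquitous total, the median of all tested genes was -0.36 and 31.6% were called lower. On that scale Rpl22l1 had a value of -0.46 ± 0.09 (SE; adjusted p = 0.0208), the only paralog edgeR called, and Rps4l had -0.66. The value of Rpl22l1 was thus near that of the median gene.

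The other 3 pairs overlapped. The ratio of Rpl39l to Rpl39 differed by 0.65 (exact permutation p = 0.6) on very few counts. Those of Rps27l and Rps27rt to Rps27 differed by 1.03 and 0.91 (exact permutation p = 0.5 for both) and carried the high Rps27 value of WT 2. With Rps27 and Rps27rt summed as the parent, an alternative added after seeing the data, the ratio of Rps27l was -3.31, -3.62 and -3.34 in WT and -3.31, -3.32 and -3.24 in KO. Rps27l thus had about the same ratio to its summed parent in both genotypes, with a difference of 0.13 (exact permutation p = 0.3).

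**Figure D4:**
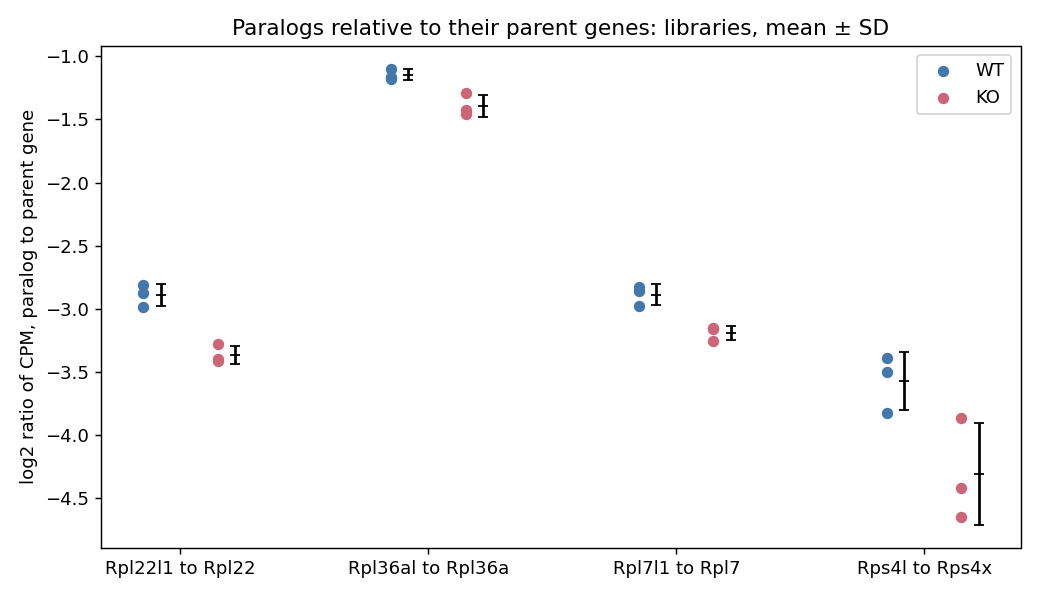
Log2 ratio of paralog to parent CPM for 4 of the 7 pairs, with a point for each library (blue WT, red KO) and the mean ± SD of 3 libraries beside them. For Rpl22l1, Rpl36al, Rpl7l1 and Rps4l every KO point lies below every WT point, by mean differences of -0.47, -0.24, -0.30 and -0.74.

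The TOP sequence was looked for at the annotated starts. RefSeq start windows were found for 67 of the 88 members. The search asked for a C followed by at least 4 letters that are C or T, within 15 bases on either side of the start and on the gene's own strand. It matched 37 of 57 ubiquitous genes (64.9%) and 7 of 10 paralogs (70.0%), against 40.3% of 27025 genes with such a window. Annotated starts can lie some bases from the true cap site, so a match describes the letters and not a mapped start. The windows below, of 30 bases 5′ to 3′, show Rpl35a and Rps15 from the called genes, ubiquitous genes with long runs, and a paralog, with the run in capitals. Rpl35a is at chr16:33056467-33056496 on the plus strand (1 of its 3 annotated starts), Rps18 at chr17:33955651-33955680 on the minus strand, Rps6 at chr4:86857353-86857382 on the minus strand, Rps15 at chr10:80292416-80292445 on the plus strand, and Rpl22l1 at chr3:28805493-28805522 on the plus strand.
Rpl35a: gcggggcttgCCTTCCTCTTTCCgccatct
Rps18: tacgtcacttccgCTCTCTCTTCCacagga
Rps6: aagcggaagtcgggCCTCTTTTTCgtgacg
Rps15: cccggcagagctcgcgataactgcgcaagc
Rpl22l1: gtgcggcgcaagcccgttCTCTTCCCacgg
Rps15 shows no such run at its annotated start, and Rpl22l1 shows one. A gene was counted as matched if any of its annotated starts had a run. The ubiquitous genes with a run had a median log2 fold change of 0.36 (37 genes) and those without had 0.36 (20 genes). Because annotated starts can miss the cap site, this split cannot separate TOP mRNAs from others. A link of the TOP sequence with the shift was not tested.

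Genes that work with these members were read from lists of other mRNAs. Fau and Rack1 encode ribosomal proteins whose symbols follow no Rpl or Rps pattern, the former as a fusion with a ubiquitin-like protein. Fau measured 141, 135 and 133 CPM in WT and 172, 163 and 171 CPM in KO, with 0.31 ± 0.06 (adjusted p = 0.072). Rack1, a scaffold on the head of the small subunit, measured 473.5, 429 and 489 CPM in WT and 639, 598 and 702.5 CPM in KO, at 0.48 ± 0.09 (adjusted p = 0.072). In both genes the groups did not overlap. Neither passed the edgeR test, and both passed that of DESeq2 (adjusted p = 0.000118 for Fau and 0.000273 for Rack1). Of 18 other mRNAs known to carry a TOP sequence, mainly translation factors, 17 had a positive value, the median was 0.24, and none was called higher (10 at an unadjusted p under 0.05 and 6 by DESeq2).

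The remaining TOP mRNA went the other way. Eef1g, a subunit of the elongation factor that reloads eEF1A with GTP, measured 389, 353 and 373 CPM in WT and 170, 172 and 203 CPM in KO. Every KO library was far below every WT library, and Eef1g fell by 1.03 ± 0.09 on the log2 scale (SE; adjusted p = 0.00651). Eef2, the translocase of elongation, had a log2 fold change of 0.35 (adjusted p = 0.0863).

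Among 16 genes that control TOP mRNAs, 1 was called higher and 0 lower by edgeR and by DESeq2, and the median was 0.04. The called gene was Eif4ebp1, which encodes a repressor of cap binding that mTORC1 switches off. It measured 3.38, 2.82 and 3.66 CPM in WT and 19.0, 16.6 and 20.8 CPM in KO and rose by 2.51 ± 0.15 (SE; adjusted p = 0.00197). Larp1 and Mtor had values of 0.16 and -0.17 with adjusted p of 0.264 and 0.206. Of 66 genes of ribosome assembly, 0 were called (9 higher and 3 lower at an unadjusted p under 0.05, and 1 in each direction by DESeq2), with a median of 0.05. Bysl, an assembly factor of the small subunit, had the smallest p of that list, at 47.8, 49.4 and 45.98 CPM in WT and 36.3, 41.9 and 40.0 CPM in KO (-0.28 ± 0.08, adjusted p = 0.142).

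The ribosome of the mitochondrion had a median near 0. Of its 78 genes, 44 had a positive and 34 a negative value, with a median of 0.02. By edgeR 1 was called, lower, and DESeq2 called 1 higher and 3 lower. Mrpl15, a large subunit protein of that ribosome, measured 30.3, 26.6 and 28.6 CPM in WT and 4.83, 4.555 and 6.96 CPM in KO and fell by 2.39 ± 0.18 on the log2 scale (adjusted p = 0.00384). Of 59 short mRNAs of the respiratory chain, 27 had a positive value and the median was -0.01. Ndufs5, a subunit of complex I, measured 9.02, 12.5 and 11.1 CPM in WT and 3.55, 1.96 and 1.78 CPM in KO and fell by 2.15 ± 0.30 (adjusted p = 0.0409). It was the only one edgeR called, and DESeq2 called 1 higher and 1 lower. When libraries were scaled by their totals, the median of all genes moved to 0.06, the respiratory chain median became 0.06 and the mitochondrial ribosome median 0.08, while the ubiquitous cytosolic median became 0.43. Relative to all genes the cytosolic shift was 0.36 under both scalings. A change of scaling moves all genes by nearly the same amount, so this equality was fixed in advance and tests nothing.

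**Figure D5:**
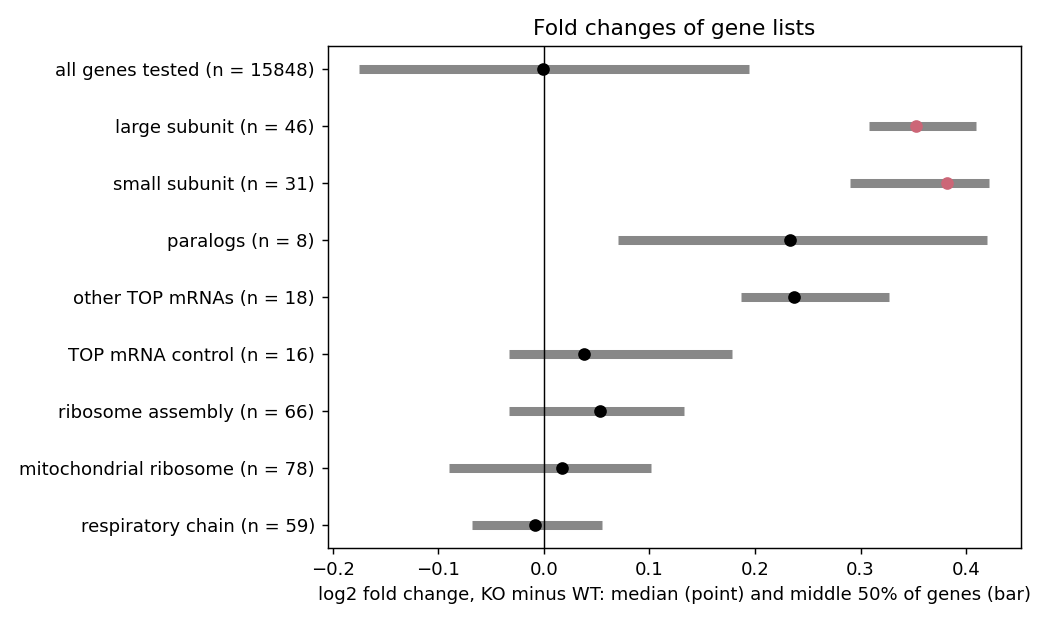
Points are the median log2 fold changes of KO against WT for each list of genes, bars hold the middle 50% of its genes, and labels give the number tested. The ubiquitous genes of the large and small subunits (red points) have medians of 0.35 and 0.38, and the lists of the mitochondrial ribosome and the respiratory chain have medians of 0.02 and -0.01.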

How the data were processed

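Per the labels' protocols, RNA from dissected and frozen embryonic brains was made into stranded mRNA libraries with a KAPA kit. Tools named in the submitters' processing notes are STAR (2.5.3a), RSEM (1.2.28), Trimmomatic and FastQC, and their builds are GRCm38 and mm10. Order, settings and strand option were not given in the sources used here. Per the file headers, the authors deposited an expected count and a TPM per gene, an FPKM, and the mean transcript length. FPKM was not used. Replicates are separate brains, and p-values measure the spread between these 6 libraries. An expected count shares read pairs that fit several genes by estimate, which bears on near-identical copies.

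The expected counts, rounded to integers, were analysed with edgeR (4.0.16, R 4.3.3): filterByExpr, TMM scaling and the two-sided quasi-likelihood test of KO against WT, with Benjamini-Hochberg adjustment over all 15848 tested genes. A gene was called at an adjusted p under 0.05, and fold changes are log2 of KO minus WT with SE. Every adjusted p without another tool named is from edgeR. The TPM values deposited by the authors served for levels between genes and for one alternative. A ratio of paralog to parent added 0.5 to each count. Coding sequences of GENCODE transcripts were compared with blastn (2.17.0). Start windows came from the RefSeq table of GRCm38.p6. The steps were tested on simulated data.

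The members and lists were chosen with earlier results of these data known. Values in every library are given for called genes, the extremes of each subunit, the stalk, Rpsa, the most abundant members, tested paralogs, members called when scaled to their own total, and from each other list the called genes or the one with the smallest p. Rpl3, Rpl4, Rpl5, Rpl10, Rpl11, Rpl15, Rpl24, Rpl26, Rpl38, Rps2, Rps6, Rps9, Rps19, Rps20, Rps27a, Eef2, Larp1 and Mtor and the parents and copies were named after their values were seen. Alternatives were DESeq2 (1.42.0), limma (3.58.1) with voom or on log2 TPM, other scalings and filters, a replicate block, animal number, and leaving out libraries. Summing copies, leaving out Rn45s and the midbrain score were added after seeing the data. Some genes are not reported here by name and are part of the counts and medians.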

Additional observations from a re-analysis of the deposited data

How the results depend on the processing

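The median log2 fold change of the 77 ubiquitous genes stayed between 0.31 and 0.43 under every alternative run, and none of them called a ubiquitous gene lower. The number called higher, 3, moved to 0 with DESeq2 size factors in edgeR, limma on log2(TPM + 1) or log2(TPM + 0.1), no filter, the replicate block, the animal number term, WT 1, WT 2, KO 1 and KO 2 alone, or the midbrain score. It was 9 with library totals, 6 with upper quartile scaling, limma-voom or at least 10 counts in every library, and 63 with DESeq2. Leaving out 1 library gave 0 to 2 calls, with 61 to 73 genes higher at an unadjusted p under 0.05, and the 2 came without KO 2. In the other settings with 0 calls, between 28 and 69 were higher at an unadjusted p under 0.05.

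Over all genes, 159 were called. DESeq2 called 1497, the replicate block 66, the animal number term 87, and the 4 libraries alone and the midbrain score 0 each (1546 and 944 at an unadjusted p under 0.05). Leaving out 1 library gave 36 to 82. Library totals gave 123 higher and 63 lower, against 81 and 78, and the block 24 and 42. DESeq2 called 1 paralog where edgeR called 0, and 7 ubiquitous genes under their own total where edgeR called 0. The scaling alternatives have no meaning for that last result and were not run.

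Direction turned for a few values. Rpl30 was -0.0185 in the 4 libraries alone and between -0.0408 and 0.13 without 1 library, negative without KO 3. Rps27 was 0.29 with copies summed and between -1.54 and 0.23 without 1 library, positive without WT 2. The ratio of Rpl39l to Rpl39 lay between -0.26 and 1.23, negative without WT 1. Foxc1, a marker of meninges with a log2 fold change of 0.68, was -0.25 in the 4 libraries alone and between -0.0575 and 0.99 without 1 library, negative without KO 3. The cause was not tested. Eef1g was not called without KO 1 (adjusted p = 0.07), and Ndufs5 and Cx3cr1 were not called in most fits without 1 library.

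As to pairing, libraries of the same replicate number correlated in their deviations from the group means at 0.10, 0.24 and 0.08, and KO 1 correlated best with WT 3, so the number was not taken to pair the brains. The block removed the 3 calls while their log2 fold changes stayed at 0.53, 0.48 and 0.47. Depth was ample for the abundant members and limits Rpl39l and Rpl37rt. The few counts of Rps27 depend also on how read pairs were divided between it and Rps27rt, which is identical in coding sequence.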
